A study of Mus musculus with 24 samples.

Results

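The genes described here are 44 members of the TGF-beta, BMP and activin signaling pathways. They comprise 3 TGF-beta ligands, 7 BMP or GDF ligands, 2 activin subunits, 4 latent TGF-beta binding proteins, 5 extracellular antagonists, 11 receptors, 8 SMADs and 4 ID genes. A row of the count table was a member when its Ensembl identifier carried one of the 44 listed symbols in GENCODE M1, and all 44 were found among the 37991 genes of the table. Of these, 40 reached the level for testing, a CPM (counts scaled to a common library size) of 1 or more in 12 or more samples out of 24. The other 4, Inhba, Grem1, Gdf15 and Smad9, were too low and are given by their counts.

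RNA was sequenced from mammary tissue of female mice at 4 ages. PyMT mice were F1 females heterozygous for the MMTV-PyMT transgene, bred from PyMT males (FVB/N-Tg(MMTV-PyVT)634Mul/J) and FVB females. In these mice the promoter of the mouse mammary tumor virus drives the polyoma virus middle T antigen in mammary epithelium, and mammary tumors develop. Homozygous FVB females without the transgene, of matching age, were the controls. Tumor tissue of 3 PyMT mice and normal gland of 3 FVB mice were collected at week 6 (hyperplasia), week 8 (adenoma/MIN, mammary intraepithelial neoplasia), week 10 (early carcinoma) and week 12 (late carcinoma). No other allele or agent is named for either group. Tissue was taken whole, so the transgene, the lesion and the mixture of cells differ together between the groups, and fewer cells of a type and less RNA per cell cannot be told apart.

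Total counts per sample ran from 6969375 to 13516601. The cell mixture differed between the groups in the marker genes, whose part in the results on the members was not tested, except for skeletal muscle. Over 4 weeks, 8 of 8 adipocyte markers were called lower in PyMT (median log2 fold change -3.93, summed normalized count 861 to 14230 in PyMT and 43030 to 119500 in FVB), as were 8 of 8 fibroblast markers (median -1.98, 21630 to 45370 and 51840 to 188800), 8 of 8 endothelial markers (median -2.40, 769 to 2065 and 4779 to 8623), 10 of 10 skeletal muscle markers (median -4.67, 0 to 36140 and 82.8 to 643700) and 5 of 8 basal or myoepithelial markers (median -2.27, 1295 to 5968 and 4538 to 16190). The muscle markers stood out in 4 FVB libraries, week 6 replicates 1 and 2, week 10 replicate 3 and week 12 replicate 1 (summed normalized counts 610500, 141400, 643700 and 364100, against at most 6065 in the other FVB libraries), and none was called at weeks 6 and 10. In PyMT their sums were highest in week 6 replicates 1 and 2 (36130 and 21990) and week 10 replicate 3 (32110). The other PyMT libraries had at most 4428. These PyMT libraries share week and replicate number with FVB libraries named here, and whether they shared handling was not tested. By contrast, 7 of 8 luminal epithelial markers were called higher (median 1.78, 21160 to 40290 in PyMT and 4341 to 19110 in FVB). The remaining marker, Krt19, was not called and was lower in PyMT at an unadjusted p under 0.05 by edgeR. Among the basal or myoepithelial markers called, the largest decreases were in Cnn1, Oxtr, Myh11 and Acta2. Raw counts of Krt14 ran from 160 to 2694 in PyMT and from 90 to 865 in FVB. Those of Krt5 ran from 242 to 1436 and from 71 to 1232, and those of Trp63 from 259 to 795 and from 116 to 561. None of 7 macrophage markers was called by edgeR over 4 weeks (2110 to 4636 in PyMT and 2418 to 6305 in FVB). Over 4 weeks 0 of them were higher and 2 lower at an unadjusted p under 0.05, and at week 10 alone 2 were called lower. None of 8 lymphocyte markers reached the level for testing (0 to 51.6 and 0 to 52.5). No marker of these lists was at 0 in every library of a group. In FVB week 10 replicate 3, 4.4% of the 3799 genes whose median lay between 10 and 30 CPM were at 0, and in PyMT week 8 replicate 2 2.87% were, while no other library exceeded 1.92%. A 0 at such a level is far outside counting error, so single 0 values of low members are not taken as absence.

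TGF-beta, BMP and activin ligands are secreted dimers that bring together type I and type II serine/threonine kinase receptors. The active type I receptor phosphorylates receptor SMADs, Smad2 and Smad3 for TGF-beta and activin and Smad1, Smad5 and Smad9 for BMP, which enter the nucleus with Smad4, while Smad6 and Smad7 inhibit the pathway. TGF-beta is stored in the matrix in a latent form bound to LTBP proteins, BMP and activin are held back by secreted antagonists, and the ID genes are well-known direct targets of BMP signaling. In the mammary gland TGF-beta is known as a brake on ductal growth that in advanced tumors can favor invasion.

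The upstream sequences of 3 ID genes are shown first, because the ID genes carried the largest rise among the members (Id2) beside large decreases (Id3, Id4) in the same samples. They are the 250 bases before the transcription start in the RefSeq promoter table of GRCm38.p6, written 5′ to 3′ on the strand of the gene. The table matched 32 of the 44 members, among them 10 of the 18 members called below. Id1 is named only. On both strands, 2 short SMAD elements were searched, the GC-rich element GGCGCC, which reads the same on either strand, and the SMAD box CAGAC (in capitals as GTCTG where it lies on the other strand). Matches are in capitals, and none overlapped another.
Id2, chr12:25096093-25096342, minus strand: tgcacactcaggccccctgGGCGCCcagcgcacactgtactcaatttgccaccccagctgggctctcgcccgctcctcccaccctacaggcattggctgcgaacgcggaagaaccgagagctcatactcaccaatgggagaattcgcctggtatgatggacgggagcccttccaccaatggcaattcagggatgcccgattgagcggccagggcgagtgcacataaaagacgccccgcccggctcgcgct
Id3, chr4:136143572-136143821, plus strand: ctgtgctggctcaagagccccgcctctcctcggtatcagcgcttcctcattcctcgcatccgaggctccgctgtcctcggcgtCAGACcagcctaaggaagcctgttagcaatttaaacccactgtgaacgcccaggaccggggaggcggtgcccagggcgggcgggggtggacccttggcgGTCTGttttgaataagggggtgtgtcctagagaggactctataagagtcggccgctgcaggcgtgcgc
Id4, chr13:48260866-48261115, plus strand: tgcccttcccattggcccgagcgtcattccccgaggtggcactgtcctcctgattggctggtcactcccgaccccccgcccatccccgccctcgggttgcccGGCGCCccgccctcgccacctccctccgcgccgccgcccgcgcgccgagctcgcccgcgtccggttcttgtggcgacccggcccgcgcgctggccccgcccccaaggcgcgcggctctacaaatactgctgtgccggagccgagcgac
The Id2 window held GGCGCC once, 231 bases before the start, and no CAGAC. The Id4 window held GGCGCC once, 148 bases before the start, and the Id3 window held CAGAC on one strand or the other 167 and 68 bases before the start. GGCGCC was found in 9.59% and CAGAC in 42.2% of 32851 promoters of this length. Among the 10 called members with an entry, Id2, Id4 and Ltbp4 held GGCGCC and Bmp6, Bmpr1b, Gdf10, Id3 and Tgfb2 held CAGAC. The gene that rose (Id2) and one that fell (Id4) thus carried the same element, and a match of letters is not a site in use.

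The first question was which members differed between tumor and normal gland, and PyMT was compared with FVB over all 4 weeks (12 against 12 samples). A member was called when the fold change was above 2 and the quasi-likelihood test of edgeR, adjusted by Benjamini-Hochberg over the 14918 genes tested, gave an adjusted p under 0.05. Of the 40 tested members, 3 were called higher (7.5%, against 8.7% of all genes tested) and 15 lower (37.5%, against 17.5%). The median log2 fold change of the 40 members was -0.55, and that of all genes -0.03. At an adjusted p under 0.05 and any size, 8 members were higher (23.6% of all genes) and 25 lower (27.4% of all genes), while 7 did not pass. The 12 PyMT samples all lay above the 12 FVB samples in 3 members, Tgfb3, Id2 and Acvr1b, and 4.67% of all genes did so. They all lay below in 7 members, Tgfbr3, Bmp3, Bmp7, Fstl1, Chrdl1, Id1 and Ltbp4, and 7.21% of all genes did so. With the mean log2 level of the muscle markers as a covariate the counts of called members were the same, and without the 4 FVB libraries rich in muscle RNA they were 3 higher and 16 lower, with Tgfb1 added.

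**Figure D1:**
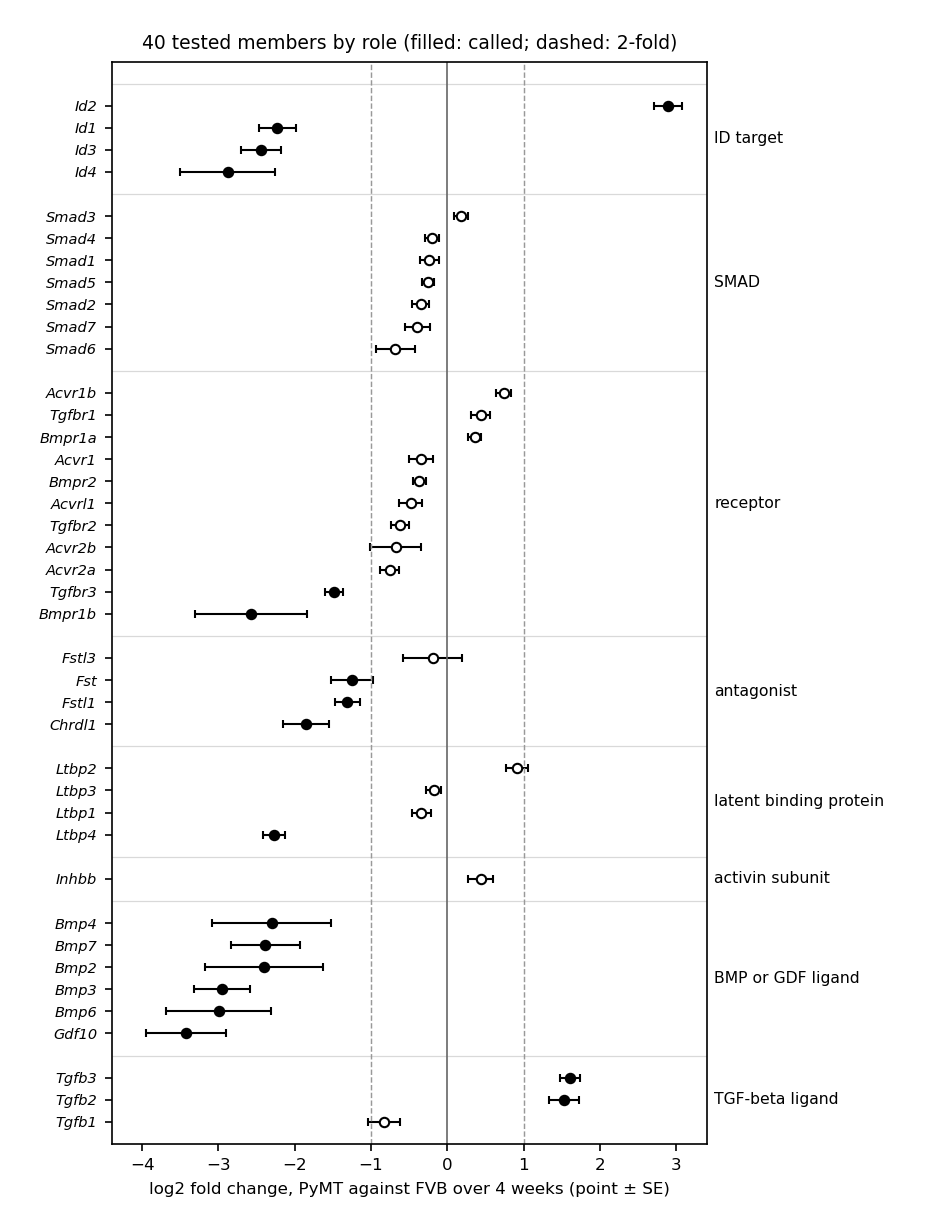
Log2 fold change of the 40 tested members in PyMT against FVB over 4 weeks (x axis), grouped by role (y axis), as points with bars of 1 SE. Filled points were called, and the dashed lines mark a 2-fold change. The 3 filled points on the right are Tgfb2 (1.53), Tgfb3 (1.61) and Id2 (2.89), all BMP or GDF ligands lie on the left, and all SMADs lie between the dashed lines.

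Among the TGF-beta ligands, Tgfb2 and Tgfb3 rose and Tgfb1 did not. Tgfb3 (mm9 chr12:87397694-87419991) had normalized counts (counts divided by DESeq2's size factors) of 1978, 2894 and 3909 as the lowest, median and highest of the 12 PyMT samples, and of 622, 992 and 1405 in FVB. The lowest PyMT sample lay above the highest FVB sample. Its log2 fold change was 1.61 ± 0.13 (SE, adjusted p = 2.46e-09), or 3.05-fold, and it was called at all 4 weeks (1.38, 1.91, 1.79 and 1.40 on the log2 scale at weeks 6, 8, 10 and 12). At week 12 the PyMT samples had 2476, 3494 and 2652 and the FVB samples 1069, 1405 and 913.

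Tgfb2 (mm9 chr1:188447065-188529871) ran from 163 to 768 in PyMT with a median of 589, and from 123 to 258 in FVB with a median of 211. A single PyMT sample fell inside the FVB range, week 8 replicate 2 at 163, which is the PyMT library with the most genes at 0. The difference was 1.53 ± 0.20 (SE, adjusted p = 1.42e-06), or 2.89-fold. Tgfb2 was called at weeks 6, 10 and 12, and at week 8 the log2 fold change of 1.32 missed the threshold (adjusted p = 0.141) while the same week was called without PyMT replicate 2. At week 12 the values were 601, 613 and 429 in PyMT and 160, 221 and 123 in FVB.

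Tgfb1 (mm9 chr7:26472021-26490096), the isoform best known from immune and stromal cells, ran from 54.5 to 181 in PyMT (median 115) and from 92.8 to 323 in FVB (median 190). Its samples overlapped, and the log2 fold change of -0.83 ± 0.21 (SE, adjusted p = 0.00229) was below 2-fold. Compared per length, in RPKM (counts scaled to exon length and library size), the 3 ligands summed to 80.3 to 166 in PyMT and 31.9 to 66.0 in FVB. Tgfb3 made up 80.8% to 86.8% of this sum in PyMT (median 85.4%) and 63.7% to 82.0% in FVB (median 70.7%). Tgfb1 made up 2.31% to 9.58% in PyMT (median 4.12%) and 9.42% to 26.4% in FVB (median 19.1%), and the share of Tgfb2 was close in both, with medians of 11.0% and 9.67%. Tgfb3 was thus the most abundant of the 3 isoforms in every library, in normal gland as in tumor.

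The 6 tested BMP or GDF ligands were all called lower (17.5% of all genes were), with log2 fold changes from -3.43 to -2.30. The level for testing, 1 CPM in 12 samples, can be reached by the 12 samples of either genotype alone. A low gene could thus be tested through the group where it was higher, and no excess is read from this count. Gdf10 (mm9 chr14:34736773-34749700), a BMP3-like ligand, had the largest decrease of all members. It ran from 0 to 68.8 normalized counts in PyMT (median 26.0) and from 51.7 to 442 in FVB (median 233). The ranges overlapped through FVB week 6 replicate 2 (51.7), below which PyMT week 6 replicate 2 (68.8) and PyMT week 8 replicate 3 (54.1) did not fall. The difference was -3.43 ± 0.53 (SE, adjusted p = 1.46e-05), a 10.7-fold lower level. By week it was -2.22, -2.91, -3.97 and -4.57, called at weeks 8, 10 and 12, and at week 12 the values were 0, 32.1 and 4.62 in PyMT and 285, 173 and 442 in FVB.

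Bmp3 (mm9 chr5:99283458-99309979), a ligand that acts largely as an antagonist of other BMPs, ran from 8.38 to 162 in PyMT (median 60.6) and from 178 to 1282 in FVB (median 362). No PyMT sample reached the lowest FVB sample. It was called at every week, with log2 fold changes of -1.76, -3.24, -4.27 and -2.49, and over 4 weeks it differed by -2.95 ± 0.37 (SE, adjusted p = 1.05e-06). The call of week 6 held under 5 of 12 alternatives. At week 12 the PyMT samples had 162, 40.6 and 15.7 and the FVB samples 328, 473 and 460, so every PyMT sample lay below every FVB sample although PyMT replicate 1 stood well above the other PyMT samples.

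Bmp7 (mm9 chr2:172693513-172765822), an epithelial BMP, ran from 0 to 54.5 in PyMT (median 31.6) and from 59.3 to 234 in FVB (median 156), without overlap. It differed by -2.39 ± 0.45 (SE, adjusted p = 1.49e-04) and was called at weeks 10 and 12. Its values at week 12 were 26.7, 54.5 and 7.39 in PyMT and 155, 221 and 91.9 in FVB.

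Bmp6 (mm9 chr13:38436995-38592183) ran from 0 to 73.0 in PyMT (median 9.38) and from 44.7 to 206 in FVB (median 113). The 2 highest PyMT samples, week 6 replicate 1 (68.6) and week 12 replicate 1 (73.0), lay inside the FVB range, while 4 PyMT samples had 0. The difference was -3.00 ± 0.69 (SE, adjusted p = 0.00100), and among the weeks only week 10 was called. At week 12 the values were 73.0, 0 and 11.1 in PyMT and 194, 56.7 and 137 in FVB. Bmp6 shares 236 of its 3586 exon bases with Txndc5 on the opposite strand, which had 36809 counts in all, and whether the counting used the strand is not given in the sources used here.

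The classical ligands Bmp2 and Bmp4 were low in both groups. Bmp2 (mm9 chr2:133377895-133388621) ran from 0 to 23.1 in PyMT (median 5.26) and from 10.0 to 75.3 in FVB (median 36.5), and differed by -2.41 ± 0.77 (SE, adjusted p = 0.0131). At week 12 it had 0, 12.8 and 3.70 in PyMT and 75.3, 47.9 and 44.8 in FVB, a separation of the samples that missed the threshold at that week alone (adjusted p = 0.0607). Bmp4 (mm9 chr14:47003195-47010344) ran from 0 to 35.6 in PyMT (median 8.18) and from 0.771 to 87.2 in FVB (median 47.0), and differed by -2.30 ± 0.78 (SE, adjusted p = 0.0184). Its call over 4 weeks was lost without FVB week 6 replicate 3 (-1.87, adjusted p = 0.0586), so it was the least firm call of the ligands. At week 12 Bmp4 was called, with 14.4, 0 and 9.24 in PyMT and 78.0, 83.2 and 60.1 in FVB. Per length, the 5 BMP ligands together reached 1.57 to 9.99 RPKM in PyMT (median 4.33) and 14.3 to 61.4 RPKM in FVB (median 28.4), without overlap, and Bmp3 was the most abundant of them by median share in both (55.9% and 56.1%). Gdf15, a stress-induced ligand, had at most 12 counts in any library and 0 in 17 of 24.

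Of the 2 activin subunits, Inhbb (activin beta B) was expressed in all samples, at 592 to 1339 in PyMT (median 956) and 333 to 970 in FVB (median 690). Its ranges overlapped, and the log2 fold change was 0.44 ± 0.17 (SE, adjusted p = 0.0357), below 2-fold. Inhba (activin beta A) had at most 34 counts in a library and 0 in 12 of 24.

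**Figure D2:**
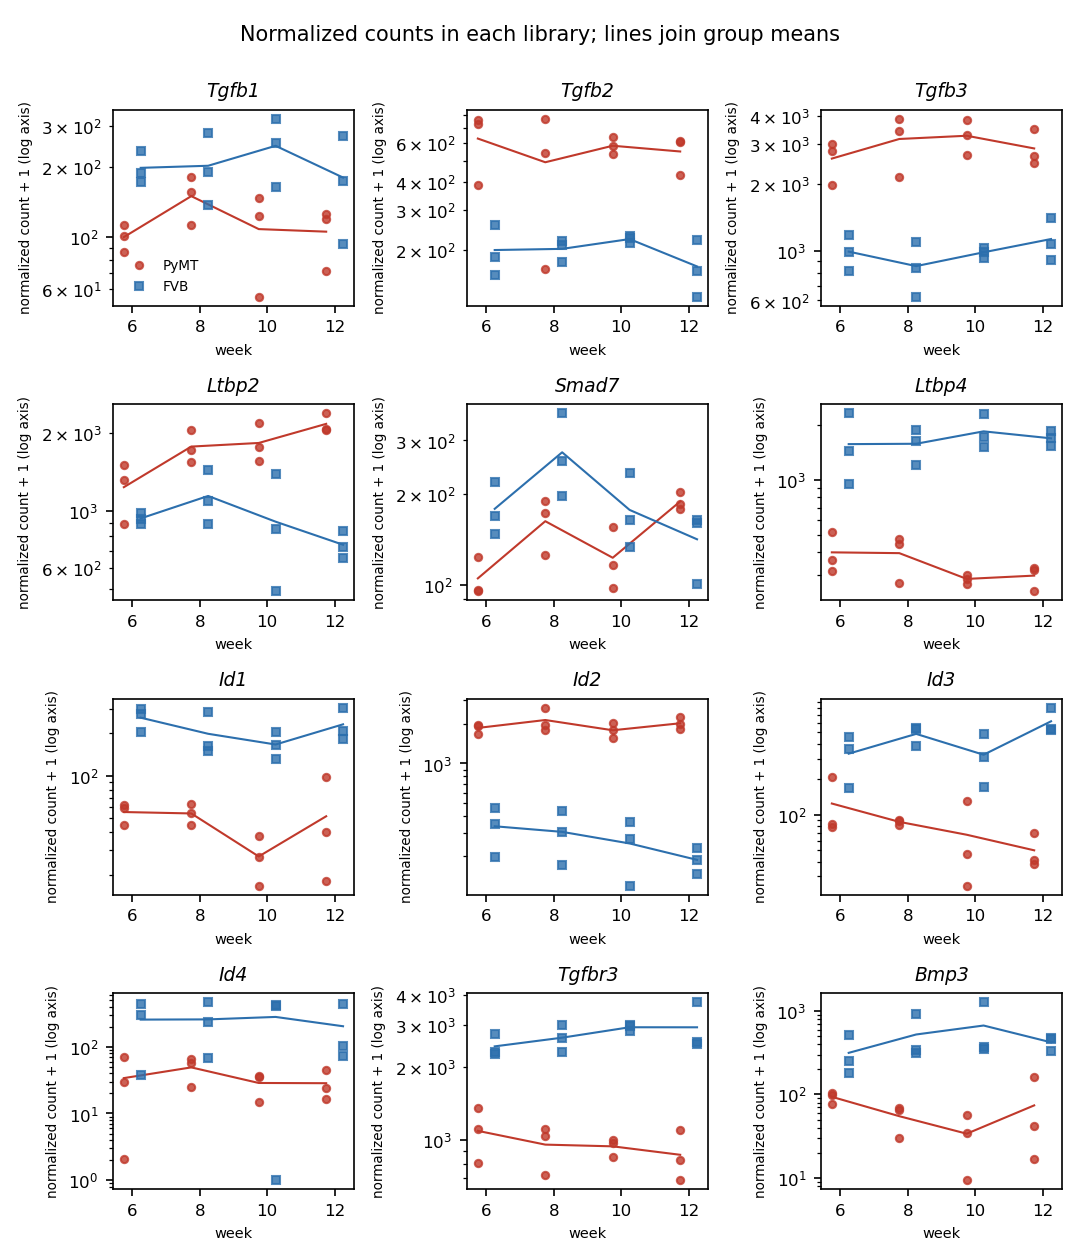
Normalized counts plus 1 (y axis, log scale) at weeks 6, 8, 10 and 12 (x axis) for selected members, with each library as a point and lines joining the means of the 3 libraries of a group, PyMT and FVB. Every PyMT library lay above every FVB library of its week for Tgfb3 and Id2 and below for Id1, Ltbp4 and Tgfbr3, and Smad7 lay below FVB at week 6 and above it at week 12.

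The latent TGF-beta binding proteins went different ways. Ltbp4 (mm9 chr7:28090155-28122711), a matrix protein of elastic fibers that binds latent TGF-beta, ran from 244 to 519 in PyMT (median 317) and from 944 to 2318 in FVB (median 1660), without overlap. It fell at every week, by 1.99, 1.97, 2.64 and 2.46 on the log2 scale, and over 4 weeks the difference was -2.27 ± 0.14 (SE, adjusted p = 7.30e-11). At week 12 it had 328, 321 and 244 in PyMT and 1686, 1531 and 1839 in FVB.

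Ltbp2 (mm9 chr12:86124162-86217482), a related microfibril protein that does not bind latent TGF-beta, ran from 891 to 2382 in PyMT (median 1738) and from 488 to 1439 in FVB (median 890). Over 4 weeks its log2 fold change of 0.91 ± 0.14 (SE, adjusted p = 1.37e-05) was below 2-fold, but it was called at week 12, where PyMT had 2382, 2043 and 2067 and FVB 721, 838 and 657 (1.60 ± 0.17, adjusted p = 4.81e-04). The difference was 0.39, 0.65, 1.06 and 1.60 at weeks 6, 8, 10 and 12. Ltbp2 shares 764 of 8193 exon bases with D030025P21Rik on the opposite strand, a gene of only 229 counts in all. Ltbp1 (-0.34) and Ltbp3 (-0.18, adjusted p = 0.134) differed by less than 2-fold. As shares of the summed RPKM of the 4 genes, Ltbp3 stood first in both groups, with medians of 52.5% in PyMT and 48.7% in FVB, while the second place was held by Ltbp2 in PyMT (median 31.0%, 19.7% to 35.1%) and by Ltbp4 in FVB (median 28.0%, 21.8% to 44.4%). Ltbp4 made up 4.86% to 12.5% in PyMT and Ltbp2 7.47% to 18.0% in FVB, so neither share overlapped between the groups.

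Of the antagonists, 3 of 4 tested were called lower (17.5% of all genes) and none higher (8.7% of all genes). Fstl1 (mm9 chr16:37776959-37836600), a secreted follistatin-like glycoprotein of mesenchymal cells, was the most abundant of them and ran from 984 to 2231 in PyMT (median 1412) and from 2490 to 5706 in FVB (median 3968), without overlap. Its log2 fold change was -1.31 ± 0.16 (SE, adjusted p = 8.96e-07), with calls at weeks 6, 8 and 10 and a value just inside 2-fold at week 12 (1.99-fold lower, with 2231, 1415 and 1276 in PyMT and 2790, 3265 and 4060 in FVB). Without normalization beyond library size Fstl1 was not called at weeks 8 and 10. Chrdl1 (mm9 chrX:139720217-139828805), a BMP antagonist of the chordin family, ran from 34.7 to 255 in PyMT (median 123) and from 275 to 1000 in FVB (median 507), also without overlap, and differed by -1.85 ± 0.30 (SE, adjusted p = 2.86e-05). It was called at weeks 10 and 12, and at week 12 it had 91.5, 255 and 68.4 in PyMT and 514, 345 and 690 in FVB.

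Fst (mm9 chr13:115242470-115249159), follistatin, which binds activin, ran from 20.5 to 94.6 in PyMT (median 65.8) and from 64.4 to 297 in FVB (median 143), and differed by -1.25 ± 0.28 (SE, adjusted p = 8.40e-04). The ranges overlapped and no single week was called, and with library size alone the value was -0.92, no longer 2-fold. At week 12 Fst had 94.6, 56.6 and 22.2 in PyMT and 149, 111 and 138 in FVB. Fstl3, another activin-binding protein, did not pass (-0.19 ± 0.38, adjusted p = 0.702), and the BMP antagonist Grem1 had 2 counts in PyMT week 12 replicate 3 and 0 in the other 23 libraries.

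Most receptors differed by less than 2-fold. Of 11, none was called higher (8.7% of all genes) and 2 were called lower (17.5% of all genes), Tgfbr3 and Bmpr1b. At an adjusted p under 0.05 and any size, 3 were higher (23.6% of all genes) and 6 lower (27.4% of all genes). Tgfbr3 (mm9 chr5:107535589-107718648), betaglycan, the co-receptor that presents TGF-beta to its receptors and also binds inhibin, ran from 682 to 1360 in PyMT (median 988) and from 2267 to 3731 in FVB (median 2696), without overlap. It was called at all 4 weeks (-1.16, -1.45, -1.59 and -1.71) and differed over 4 weeks by -1.49 ± 0.12 (SE, adjusted p = 1.09e-09). Its week 12 values were 828, 1097 and 682 in PyMT and 2552, 2508 and 3731 in FVB. Bmpr1b (mm9 chr3:141500100-141832389), a type I BMP receptor, was low, at 0 to 46.2 in PyMT (median 11.0) and 0 to 177 in FVB (median 67.1). It differed by -2.58 ± 0.74 (SE, adjusted p = 0.00597) with overlapping ranges, and no single week was called. At week 12 the groups were close, with 31.9, 15.0 and 46.2 in PyMT and 55.2, 69.3 and 17.5 in FVB (-0.55, adjusted p = 0.623).

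The signaling receptors of TGF-beta moved in opposite directions by less than 2-fold, with the type I receptor Tgfbr1 at 0.44 ± 0.13 (SE, adjusted p = 0.00646) and the type II receptor Tgfbr2 at -0.63 ± 0.12 (SE, adjusted p = 1.49e-04). In a similar way the type I BMP receptor Bmpr1a was at 0.36 (adjusted p = 0.00101) and the type II receptor Bmpr2 at -0.37 (adjusted p = 0.00106). Acvr1b, the type I activin receptor, ran from 474 to 836 in PyMT and from 295 to 467 in FVB without overlap, a log2 fold change of 0.74 ± 0.10 (SE, adjusted p = 2.40e-06). The type II activin receptor Acvr2a (mm9 chr2:48669629-48758789) was at -0.76 ± 0.12 (SE, adjusted p = 2.28e-05) and was called at week 12, where it had 178, 278 and 232 in PyMT and 487, 492 and 546 in FVB (-1.10, adjusted p = 0.00809). Acvr2a shares 446 of 5686 exon bases with Orc4 on the opposite strand, which had 13328 counts in all. Acvrl1, the type I receptor of endothelial cells, was at -0.48 (adjusted p = 0.00967), beside a median of -2.40 of the endothelial markers, and Acvr1 (-0.34, adjusted p = 0.0802) and Acvr2b (-0.68, adjusted p = 0.0964) did not pass.

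None of the 7 tested SMADs was called by edgeR over 4 weeks or at any week, nor by DESeq2 in these comparisons or by voom over 4 weeks. At an unadjusted p under 0.05, edgeR gave 5 SMADs lower and 0 higher over 4 weeks (30% and 26.3% of all genes), 2 lower at week 6 (15.3% of all genes) and 0 at each other week. Their log2 fold changes ran from -0.68 to 0.17. Smad2 (-0.35, adjusted p = 0.0167), Smad5 (-0.25, adjusted p = 0.00958), Smad6 (-0.68, adjusted p = 0.0323) and Smad7 (-0.39, adjusted p = 0.0456) passed at any size, all lower in PyMT, and Smad1 (-0.23), Smad3 (0.17) and Smad4 (-0.20) did not. The SE of these 7 values was between 0.08 and 0.26. With library size alone as scaling, which moved the median of all genes from -0.03 to 0.26, Smad1, Smad4, Smad5, Ltbp3 and Fstl3 turned positive (at most 0.10), so no direction is read from these, and Smad2, Smad6, Smad7, Bmpr2, Acvrl1 and Ltbp1 did not pass at any size. Smad3 was between 814 and 1310 normalized counts in PyMT and between 529 and 971 in FVB, and Smad4 between 537 and 1085 and between 677 and 942, so the central SMADs were well above the level at which counting limits the comparison. Smad9 had at most 31 counts in a library and was not tested.

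Among the inhibitory SMADs, Smad7 was lower in all 3 PyMT samples than in all 3 FVB samples at week 6 (123, 94.9 and 94.2 against 146, 167 and 219) and week 8 (188, 125 and 171 against 196, 369 and 255), and higher in all 3 at week 12 (202, 184 and 177 against 159, 99.6 and 163). At week 10 the samples overlapped (154, 96.4 and 115 against 132, 233 and 163). The log2 fold change went from -0.77 at week 6 to 0.46 at week 12, a change of 1.22 ± 0.45 (SE, adjusted p = 0.973 by edgeR), which does not pass the adjustment. Smad6 went from -1.42 to -0.09, a change of 1.32 ± 0.73 (SE, adjusted p = 1 by edgeR).

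The 4 ID genes, inhibitors of DNA binding that block basic helix-loop-helix factors, split, with Id2 higher and Id1, Id3 and Id4 lower. Id2 (mm9 chr12:25778666-25780957) ran from 1548 to 2640 in PyMT (median 1936) and from 119 to 462 in FVB (median 248). Every PyMT sample was above every FVB sample by more than 3 times, and the PyMT samples lay close together. The log2 fold change over 4 weeks was 2.89 ± 0.18 (SE, adjusted p = 6.06e-11), or 7.43-fold, the largest rise among the members. It was called at every week (2.46, 2.81, 2.88 and 3.47), and at week 12 the values were 1810, 2248 and 1966 in PyMT and 147, 185 and 229 in FVB.

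Id1 (mm9 chr2:152561987-152563146) ran from 15.7 to 96.6 in PyMT (median 43.9) and from 132 to 304 in FVB (median 203), without overlap. It was called at every week (-2.24, -1.87, -2.61 and -2.14), with -2.23 ± 0.24 over 4 weeks (SE, adjusted p = 1.61e-07). At week 12 it had 96.6, 17.1 and 38.8 in PyMT and 209, 180 and 304 in FVB. Id3 (mm9 chr4:135699412-135701670) ran from 24.0 to 211 in PyMT (median 80.0) and from 168 to 814 in FVB (median 473), and only PyMT week 6 replicate 3, at 211, lay inside the FVB range. It differed by -2.44 ± 0.27 (SE, adjusted p = 1.57e-07) and was called at weeks 8 and 12 (-1.40, -2.48, -2.24 and -3.62 at the 4 weeks). At week 12 Id3 had 68.9, 37.4 and 40.7 in PyMT and 519, 531 and 814 in FVB, the widest separation of any week.

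Id4 (mm9 chr13:48356796-48359405) ran from 1.04 to 69.4 in PyMT (median 31.1) and from 0 to 470 in FVB (median 265). The FVB sample at 0 was week 10 replicate 3, described above for its many genes at 0, and the FVB samples ranged widely. Id4 differed by -2.88 ± 0.63 (SE, adjusted p = 6.14e-04) and was called at week 12 alone, with 43.2, 23.5 and 15.7 in PyMT and 71.3, 434 and 103 in FVB. Without that FVB replicate, edgeR called it at week 10 too. Per length, the 4 ID genes summed to 154 to 250 RPKM in PyMT (median 189) and 43.1 to 122 RPKM in FVB (median 95.5). Id2 made up 87.7% to 97.3% of the sum in PyMT (median 94.0%) and 17.0% to 44.8% in FVB (median 25.7%). In FVB the sum was spread over the 4 genes, with medians of 33.6% for Id3, 23.0% for Id1 and 19.7% for Id4, while in PyMT each of these had a median under 3% (2.52%, 2.26% and 1.26%).

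**Figure D3:**
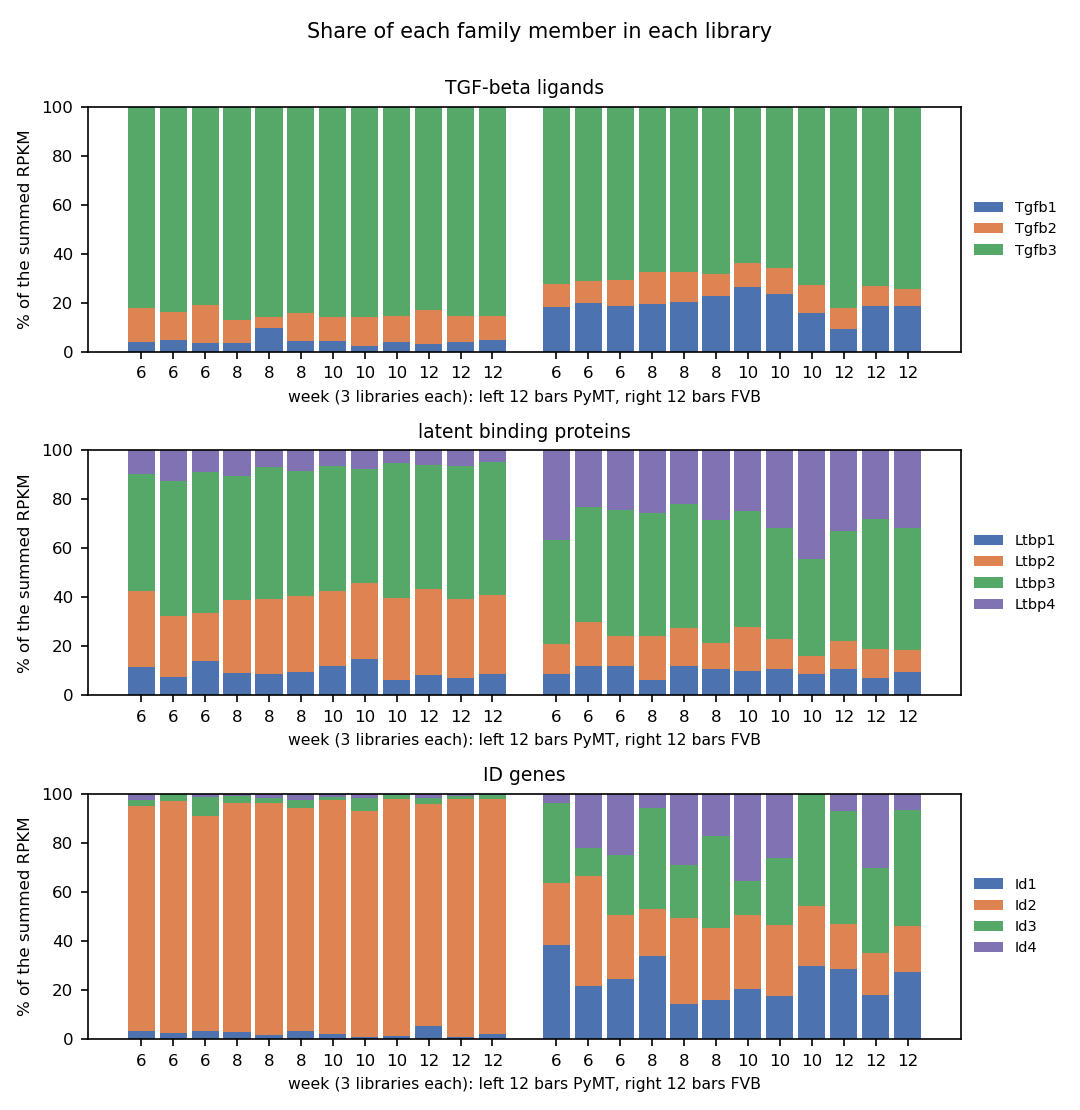
Share of each gene in the summed RPKM of its family (y axis, 0 to 100%) in each of 24 libraries (x axis, 12 PyMT bars on the left and 12 FVB bars on the right, labelled by week). Id2 filled 87.7% to 97.3% of the ID genes in PyMT and 17.0% to 44.8% in FVB. Tgfb3 was the largest part of the TGF-beta ligands in every library. By median share, Ltbp2 stood second among the latent binding proteins in PyMT and Ltbp4 in FVB.

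The second question was when the differences appeared. At week 6 (hyperplasia), 3 members were called higher (7.5%, against 3.58% of all genes) and 5 lower (12.5%, against 6.46%). At week 8, 2 were higher (5%, against 3.57%) and 7 lower (17.5%, against 6.37%). At week 10 the members numbered 3 higher (7.5%, against 4.83%) and 9 lower (22.5%, against 9.09%), and at week 12 they numbered 4 higher (10%, against 7.75%) and 11 lower (27.5%, against 13.0%). Members called lower numbered more at each later week, while those called higher did not, and all genes called numbered about the same at weeks 6 and 8 and more at weeks 10 and 12. With all 24 samples in the fit, 7, 12, 15 and 13 members were called at weeks 6, 8, 10 and 12, fewer at week 12 than at week 10. The 6 members called at all 4 weeks were Tgfb3, Id2, Tgfbr3, Bmp3, Id1 and Ltbp4, and each had the same direction at every week. In all, 17 members were called at 1 week or more and 23 at none. The shares of all genes called at 1 week or more and at all 4 weeks are not given here. Nor are those of the fit of all 24 samples, so no excess among the members is read from these counts.

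**Figure D4:**
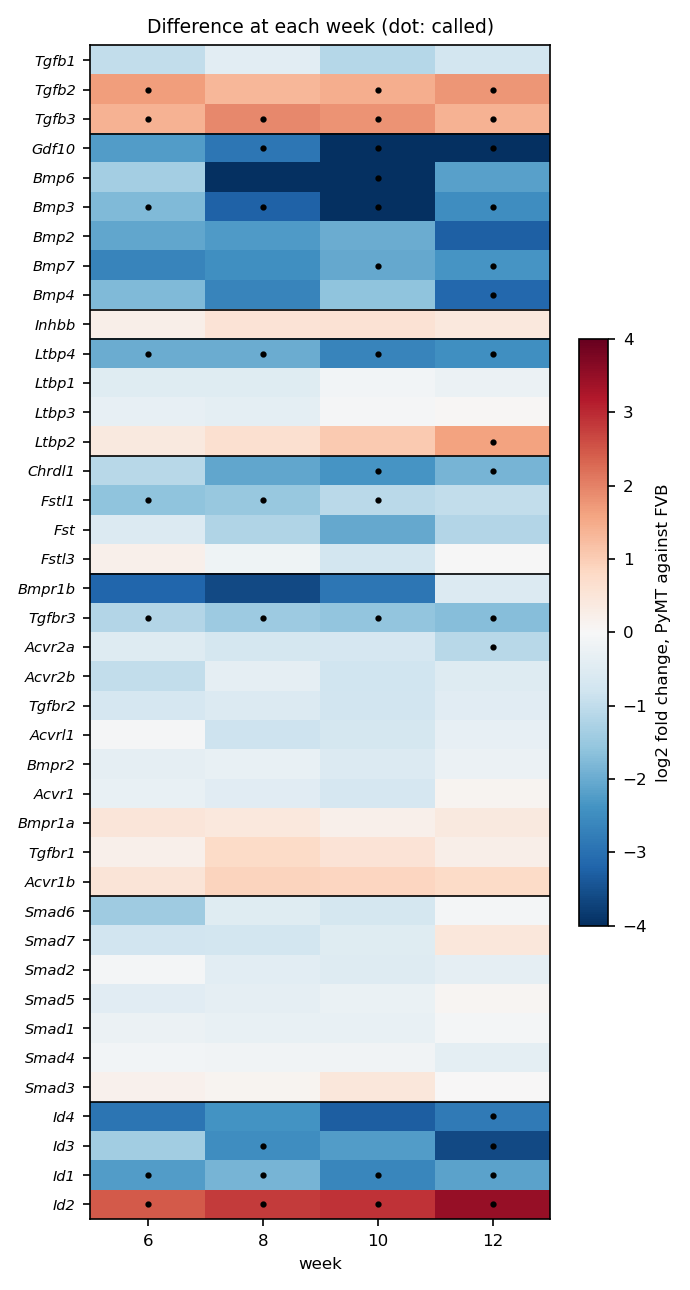
Log2 fold change of PyMT against FVB (color) for each tested member (rows) at weeks 6, 8, 10 and 12 (columns), with a dot where the member was called. The color scale ends at 4 in either direction, so Bmp3 (-4.27) and Bmp6 (-4.24) at week 10, Bmp6 (-4.20) at week 8 and Gdf10 (-4.57) at week 12 are shown at its end. Dots stand in all 4 columns for 6 members, and in none for the SMADs.

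The last question was whether members changed between weeks 6 and 12. By edgeR, 0 of 40 members changed in PyMT in either direction (0.0% of all genes higher and 0.0% lower), 0 in FVB (0.0% and 0.0%), and for 0 members did the difference between PyMT and FVB change (0.0% and 0.0%). DESeq2 and voom called 0 members in these comparisons too. At an unadjusted p under 0.05, 4 members were higher and 2 lower in PyMT (3.93% and 2.80% of all genes), 0 and 2 in FVB (1.76% and 2.43%), and 4 and 1 in the change of the difference (2.31% and 2.33%). In PyMT these were Ltbp2 (0.82), Smad7 (0.86), Smad6 (1.19) and Ltbp3 (0.42), higher at week 12, and Id3 (-1.35) and Acvr2a (-0.59), lower. In the change of the difference they were Ltbp2 (1.19), Smad7 (1.22), Smad5 (0.51) and Id2 (1.00) in one direction and Id3 (-2.23 ± 0.73, SE, adjusted p = 0.923 by edgeR) in the other. In FVB they were Id2 (-0.88) and Smad5 (-0.45), both lower at week 12, and the same FVB samples enter the change of the difference. None of these members passes the adjustment.

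Beyond the members, 82 further genes of the pathway were listed by role, of which 52 were tested and 3 were called higher and 19 lower over 4 weeks, beside 8.7% and 17.5% of all genes, which are also the shares to set against the counts in each role below. Of 4 other ligands tested, 3 were lower, Inha (-2.43), Bmp5 (-2.40) and Gdf11 (-2.36). Of 5 other receptors and co-receptors, 2 were lower, the nodal and activin receptor Acvr1c (-3.92 ± 0.25, SE, adjusted p = 8.99e-11), known from fat cells, and the endothelial co-receptor Eng (-2.18 ± 0.22, SE, adjusted p = 4.07e-08). Of 11 other antagonists, 6 were lower, among them Bmper (-2.34) and Sostdc1 (-2.33), and Chrdl2 was higher (3.97), although its level was at most 88.6 normalized counts and its week 12 samples did not show a rise (-0.92). Of 16 intracellular regulators, 3 were lower, Tgfb1i1 (-2.84), the SMAD-binding repressor Zeb2 (-2.42) and Fkbp1a (-1.10), and none was called higher over 4 weeks. At an unadjusted p under 0.05 by edgeR, 3 of them were higher and 8 lower, beside 26.3% and 30% of all genes. At week 10, 1 was called higher and 3 lower, beside 4.83% and 9.09% of all genes. Of 8 genes that release or activate the ligands, the proteases Tll1 (-2.23) and Bmp1 (-1.41) were lower and the TGF-beta activator Thbs1 was higher (1.34). At the unadjusted threshold over 4 weeks, 4 of the 8 were higher and 3 lower. At week 12, 2 were called higher and 2 lower, beside 7.75% and 13.0% of all genes. Of 4 TGF-beta targets, Tgfbi was lower (-1.22) and none was called higher over 4 weeks. At the unadjusted threshold over 4 weeks, 2 of these targets were higher and 1 lower. At week 10, 1 was called higher and 1 lower. Of 4 BMP targets, Msx2 (-4.48 ± 0.69, SE, adjusted p = 1.39e-05) and Atoh8 (-3.56 ± 0.63, SE, adjusted p = 6.95e-05) were lower and Hey1, which is also a Notch target, was higher (2.49 ± 0.33, SE, adjusted p = 1.92e-06).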

How the data were processed

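At each of 4 weeks, mammary RNA of 3 PyMT and of 3 FVB mice was sequenced, 24 samples in all. The authors depleted ribosomal RNA, made directional libraries, removed adapters, used GSNAP v2012-07-02 to align reads to mm9, used HTSeq v0.5.3p3 to count them per Ensembl gene, and deposited the raw counts, without normalization. The HTSeq strand setting and the filter on multiply mapped reads are not given in the sources used here, so members that overlap another gene's exons on the opposite strand were noted beside their values. Symbols and mm9 coordinates came from GENCODE M1, in which 37205 of the 37991 genes had a model.

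The 14918 genes that reached 1 CPM in 12 or more samples out of 24 were tested with edgeR 4.0.16 in R 4.3.3, by TMM scaling and the quasi-likelihood test with Benjamini-Hochberg adjustment over all genes tested. A gene was called when it changed more than 2-fold with an adjusted p below 0.05, without the fold limit for the change of the difference. Single weeks were fitted with their 6 samples alone, and the comparisons over 4 weeks and between weeks on all 24 samples in 8 groups. The SE is the absolute log2 fold change divided by the root of the F statistic. Normalized counts are counts over DESeq2 size factors, with no pseudocount, and RPKM used the merged exon length. Total counts per sample (6969375 to 13516601) limit the precision of members under about 100 normalized counts.

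Values in single samples were to be given for members called over 4 weeks or at 2 weeks or more, the others by role, and at most 4 genes were to be named in each other list, those with the largest difference among the called, of which 1 is not reported here. Ltbp2, Acvr2a, Smad7, Tgfb1 and other members named with values beside these were given for their role. The members and lists were chosen with earlier results of these data known. The alternatives were DESeq2 1.42.0, voom of limma 3.58.1 with sample quality weights, no filter, RLE size factors, library size alone, a replicate block, a skeletal muscle covariate, fits without 2 libraries rich in 0 counts and, added after seeing the data, without 4 libraries rich in muscle RNA, and each replicate left out. The scripts were tested on simulated data, and figures were drawn in Python 3.11.15 with matplotlib 3.10.9. The study gives 1 mouse per sample. Replicate numbers come from the sample names, which do not say that samples of the same number are paired.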

Additional observations from a re-analysis of the deposited data

Results flagged for a closer look

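Smad7, an inhibitory SMAD, drew a closer look because its direction differed between weeks: all 3 PyMT samples were below all 3 FVB samples at weeks 6 and 8, and all 3 were above them at week 12. The log2 fold change rose by 1.22 from week 6 to week 12 (adjusted p = 0.973 by edgeR). The unadjusted p was below 0.05, but Smad7 was picked for its reversal in the same samples, so this p is not a separate test. How many of all genes show such a reversal is not given here, so no excess is read from it. The rise of 1.22 lay more in PyMT (0.86 between weeks 6 and 12, adjusted p = 0.528) than in FVB (-0.36). Whether these changes differ is what the value of 1.22 tests.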

How the results depend on the processing

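The counts over 4 weeks, 3 members higher and 15 lower, were the same under DESeq2, voom, RLE size factors, no filter, the replicate block, the skeletal muscle covariate and without the 2 libraries with most 0 counts. Without the 4 FVB libraries with most muscle RNA, an alternative chosen after seeing the data that leaves 1 FVB sample at week 6, assumed to vary like the others, 3 were higher and 16 lower (Tgfb1 was added). With library size only, 5 members were higher (Acvr1b and Ltbp2 were added) and 14 lower (Fst was lost, at -0.92). That scaling moved the median of all genes from -0.03 to 0.26 and the calls among all genes from 1298 higher and 2611 lower to 2064 and 2032. Leaving out each replicate in turn gave 3 to 4 members higher (4 without FVB week 10 replicate 1, through Ltbp2) and 14 to 15 lower (14 without FVB week 6 replicate 3, through Bmp4, -1.87).

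The counts at single weeks moved more. The 8 members of week 6, 9 of week 8, 12 of week 10 and 15 of week 12 were 11, 13, 16 and 17 by DESeq2, 7, 12, 15 and 13 with all 24 samples in the fit, and 7, 8, 12 and 14 with the replicate block. Without each replicate in turn they were 4 to 8, 4 to 10, 7 to 12 and 8 to 14. The fewest came without PyMT replicate 1 at week 6 (4), PyMT replicate 1 at week 8 (4, and 5 without FVB replicate 2), PyMT replicate 1 or 3 at week 10 (7 each) and PyMT replicate 3 at week 12 (8). The calls at single weeks that held under every alternative were Id2 at all 4 weeks, Tgfb3 at weeks 6, 10 and 12, Ltbp4 at weeks 8, 10 and 12, Tgfb2 and Tgfbr3 at weeks 10 and 12, Id3 at weeks 8 and 12, Fstl1 and Id1 at week 6, and Ltbp2 at week 12, and each other call was lost under at least 1. Id1 at week 8 was lost with any 1 of the 6 samples left out, and Bmp3 at week 6, Bmp7 at week 10 and Bmp4 at week 12 were lost under most alternatives. The counts of 0 for changes between weeks 6 and 12 stayed 0 throughout. Same-numbered PyMT and FVB samples deviated with correlations from -0.06 to 0.24, and differently numbered ones from -0.18 to 0.08. At weeks 8 and 10 each PyMT replicate correlated most with the FVB sample of its own number, which was not so at weeks 6 and 12. Whether same-numbered samples shared a step of handling was not tested. The names do not give pairs, so the main tests did not use the numbers, and the replicate block above did.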
